A study of Homo sapiens with 4 samples.

Results

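The clustered protocadherin genes are the protein-coding genes of GENCODE release 44 on chromosome 5 whose symbols start with PCDHA, PCDHB or PCDHG, and they number 53 of the 19689 protein-coding genes scored: 15 in the PCDHA cluster, 16 in the PCDHB cluster and 22 in the PCDHG cluster. Chromatin accessibility at these genes was compared by ATAC-seq, which maps open chromatin by the insertions of the Tn5 transposase, between C4-2B and C4-2BER cells. C4-2B is a human prostate adenocarcinoma line, and C4-2BER is an enzalutamide-resistant line derived from it, held under enzalutamide, an inhibitor of the androgen receptor, and taken by the study as a neuroendocrine-like model. Both lines had 2 libraries, which the authors merged before they called intervals, so there is 1 list of accessible intervals per line and no spread between replicates. Every difference below compares the 2 lists and carries no replicate check. A promoter was scored open in a list when an interval of that list overlapped 1000 bp either side of the transcription start site (TSS), taken as the 5′ end of the gene record. Positions are in hg38.

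Clustered protocadherins are cell surface proteins of the cadherin superfamily that bind copies of themselves on neighbouring cells, and in neurons their combinations give single cells a surface identity used in self-avoidance of branches. In the PCDHA and PCDHG clusters each gene has its own promoter and a large variable exon, which codes for the extracellular part and is spliced to constant exons shared by the whole cluster, whereas PCDHB genes consist of a single exon and use no constant exons. Most promoters of the clusters are known to carry a conserved short element, to be chosen at random in single neurons, to be silenced by DNA methylation, and to be used when CTCF and cohesin bring them to distant enhancers. The C-type genes at the 3′ ends of the PCDHA and PCDHG clusters (PCDHAC1, PCDHAC2, PCDHGC3, PCDHGC4 and PCDHGC5) are less subject to this random choice. In bulk libraries, a promoter open in fewer cells or on fewer alleles and a promoter less open in each cell cannot be told apart.

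The members of a cluster shared short words near their start sites. In the 300 bases around the canonical TSS (250 before and 50 after), the word ATGATGTCGC was found in 9 of 15 PCDHA promoters and in 10 (0.0508%) of all 19689 promoters of that length. The word GGTGGCGCTG was found in 13 of 16 PCDHB promoters and in 50 (0.254%) of all promoters, and the word GCGCCGCTGT in 10 of 22 PCDHG promoters and in 28 (0.142%) of all promoters. The copies in members began before the canonical TSS except at PCDHGA12, where the copy began 31 bp after it. Each word was the 10-base word held by most members of its cluster, was counted on the gene's own strand, and was absent from the members of both other clusters. On either strand the counts in members did not change, and the words were found in 10 (0.0508%), 78 (0.396%) and 41 (0.208%) of all promoters. The sequences below, read from hg38 on the plus strand, show the word in capitals for promoters in each state of accessibility.
PCDHA8, open in both lists, chr5:140841119-140841169: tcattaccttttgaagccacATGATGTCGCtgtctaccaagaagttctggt
PCDHA4, open in both lists, chr5:140806968-140807018: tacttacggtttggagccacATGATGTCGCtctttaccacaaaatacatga
PCDHA7, open in neither list, chr5:140834161-140834211: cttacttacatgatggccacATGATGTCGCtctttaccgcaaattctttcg
PCDHA12, open in neither list, chr5:140875233-140875283: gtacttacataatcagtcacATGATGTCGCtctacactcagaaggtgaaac
PCDHB2, open in both lists, chr5:141094535-141094585: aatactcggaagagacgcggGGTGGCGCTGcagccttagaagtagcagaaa
PCDHB11, open in C4-2BER only, chr5:141199521-141199571: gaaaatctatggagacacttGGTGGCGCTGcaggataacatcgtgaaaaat
PCDHB12, open in C4-2BER only, chr5:141208634-141208684: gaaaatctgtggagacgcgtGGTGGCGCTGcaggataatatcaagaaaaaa
PCDHB4, open in neither list, chr5:141121714-141121764: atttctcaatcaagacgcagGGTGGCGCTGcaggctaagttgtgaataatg
PCDHGB1, open in both lists, chr5:141350017-141350067: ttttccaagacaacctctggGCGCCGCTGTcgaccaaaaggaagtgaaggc
PCDHGB4, open in C4-2B only, chr5:141387609-141387659: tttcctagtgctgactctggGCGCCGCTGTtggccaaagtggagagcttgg
PCDHGB5, open in C4-2B only, chr5:141397855-141397905: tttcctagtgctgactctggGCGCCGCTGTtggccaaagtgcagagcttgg
PCDHGB6, open in C4-2B only, chr5:141407916-141407966: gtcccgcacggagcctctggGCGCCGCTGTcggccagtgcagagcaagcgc

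The exact word did not separate the states. Near copies with changed letters were not counted, such as those before PCDHGA6 (open in neither list) and PCDHA9 (open in both). In the PCDHA cluster it was held by all 4 promoters open in neither list and by 5 of the 11 open in both. In the PCDHB cluster it was held by 7 of 9 promoters open in both lists, 4 of 5 open in C4-2BER only and 2 of 2 open in neither. In the PCDHG cluster it was held by 6 of 12 promoters open in both lists, 3 of 4 open in C4-2B only, 0 of 1 open in C4-2BER only and 1 of 5 open in neither.

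Across the 53 members, 32 promoters (60.4%, Wilson 95% interval 46.9 to 72.4) were open in both lists, 4 (7.55%, 2.97 to 17.9) in C4-2B only, 6 (11.3%, 5.29 to 22.6) in C4-2BER only, and 11 (20.8%, 12.0 to 33.5) in neither. Over all protein-coding genes the same shares were 67.6% for both, 2.37% for C4-2B only, 4.53% for C4-2BER only and 25.5% for neither. The members thus had a promoter in 1 list only at a higher share than all genes in both directions, while the shares open in both and in neither differed from those of all genes by less than the counting interval. These intervals cover counting error only, and neighbouring promoters of a cluster are not independent. Open members were also weaker than most promoters, with a median of 24 C4-2B reads, against 122 at all promoters open in both lists. Whether other promoters of that strength were in 1 list only as often was not tested. Among the 819 other protein-coding genes of chromosome 5, 18 (2.20%) were open in C4-2B only and 26 (3.17%) in C4-2BER only.

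The 2 directions fell in different clusters. The PCDHB cluster held 5 of the 6 promoters open in C4-2BER only and none of those open in C4-2B only (0 of 16, Wilson upper bound 19.4%). The PCDHG cluster held all 4 promoters open in C4-2B only and 1 open in C4-2BER only. The PCDHA cluster held no promoter open in 1 list only (0 of 15 in either direction, upper bound 20.4%), with 11 open in both and 4 in neither. These counts moved with the strictness of the lists: with a −log10 q of at least 5 in both, 8 members were open in C4-2B only, against 2.41% of all genes, and with equal numbers of top intervals from either list 11 were open in C4-2BER only, against 6.07% of all genes. The count of 0 in PCDHA did not hold in 5 settings: 1 PCDHA member was open in C4-2B only with a window of 500 bp and 1 with a window of 2000 bp, 2 in C4-2B only and 1 in C4-2BER only with a −log10 q of at least 5, 2 in C4-2BER only with one of at least 10, and 2 in C4-2BER only with equal numbers of top intervals. PCDHGA5, PCDHGB5, PCDHGB6, PCDHB1, PCDHB11 and PCDHGC4 kept their state in every setting tried, whereas PCDHGB4, PCDHB12 and PCDHB15 were no longer open in a single list at a −log10 q of at least 10, nor PCDHB7 at one of at least 5.

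**Figure D1:**
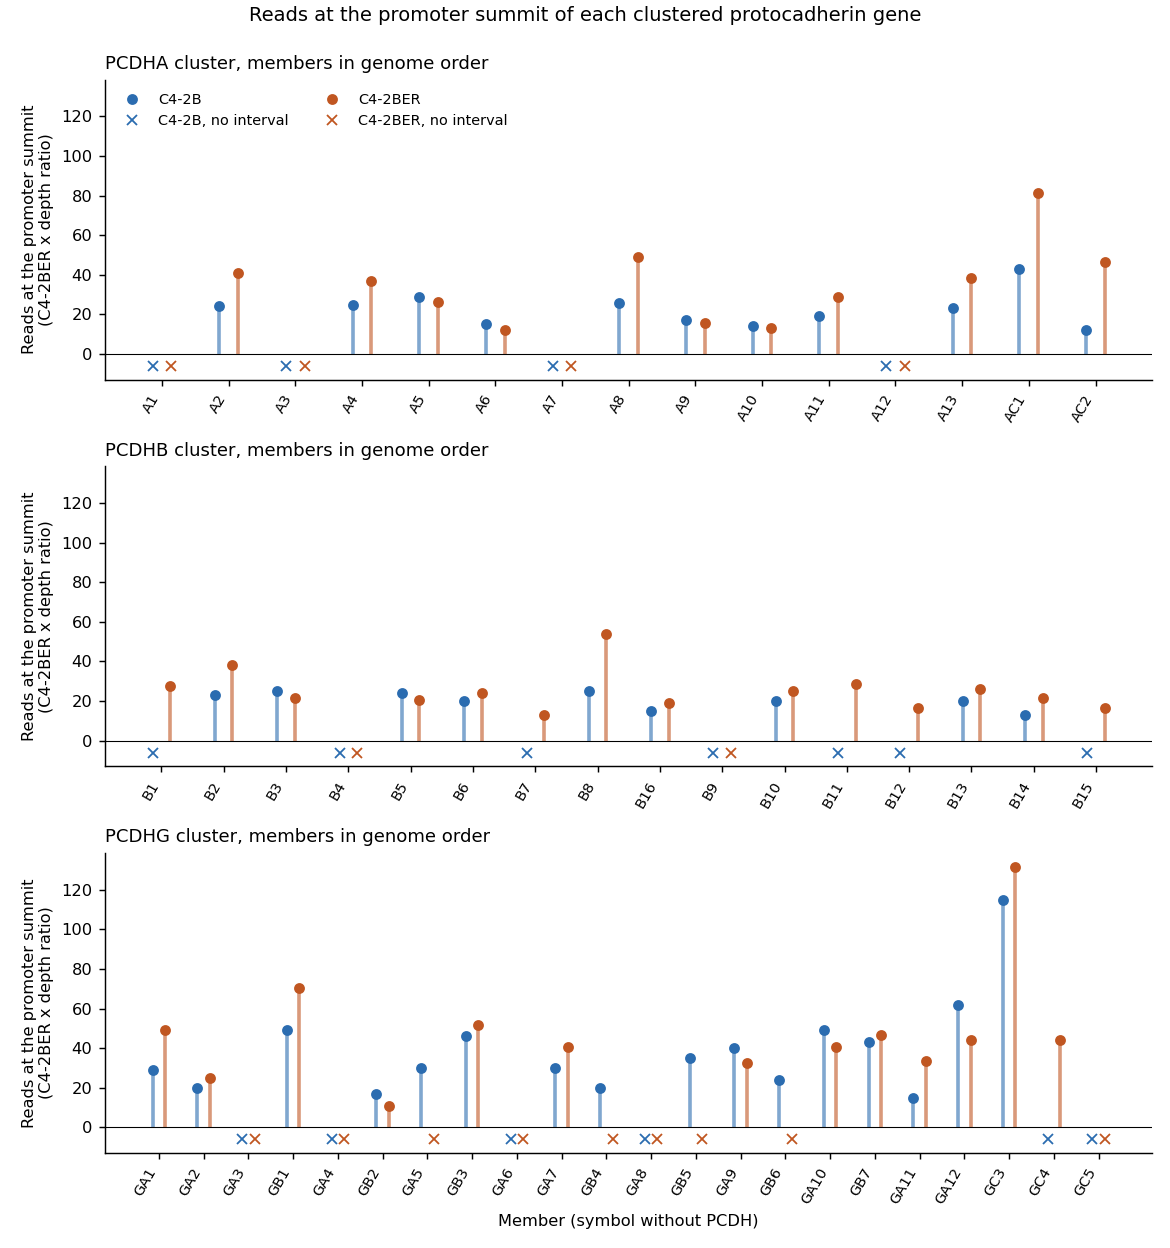
Reads at the promoter summit (y axis, C4-2BER multiplied by the depth ratio) of the 53 members in genome order (x axis), with a panel per cluster, blue points for C4-2B, orange points for C4-2BER and a cross below the axis where a list had no interval. PCDHGC3 stood highest in both lists, 5 PCDHB members had an orange point only, and 4 PCDHG members had a blue point only.

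The PCDHB cluster codes for protocadherins that lack the shared intracellular end of the other clusters. The 5 members open in C4-2BER only were PCDHB1, PCDHB7, PCDHB11, PCDHB12 and PCDHB15, and the reads below are those over the summit of the interval. At PCDHB11 (chr5:141199400-141200141) the C4-2BER summit held 24 reads, 3.59 times the depth-scaled number that would have been called in C4-2B at the same local background (8 reads). At PCDHB1 (chr5:141050676-141051742) the summit held 23 reads, 3.06 times the corresponding limit of 9 reads. These 2 calls stood well above the limit of the other list.

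The other 3 were weaker. PCDHB12 (chr5:141208609-141208843) and PCDHB15 (chr5:141245006-141245859) each had 14 reads, 2.09 times the limit of 8 reads. PCDHB7 (chr5:141172450-141172649) had 11 reads, 1.65 times that limit, with a deposited −log10 q of 4.24. In C4-2B the nearest interval lay 9861 bp from the canonical TSS of PCDHB1, 4969 bp from that of PCDHB7, 7173 bp from PCDHB11, 5013 bp from PCDHB12 and 21965 bp from PCDHB15, so none of the 5 had a C4-2B interval just outside the window.

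Of the PCDHB promoters, 9 were open in both lists, with 13 to 25 C4-2B reads and 16 to 45 C4-2BER reads. PCDHB8 was the strongest of them in C4-2BER, with 25 C4-2B reads and 45 C4-2BER reads, and PCDHB3 held as many C4-2B reads, with 25 there and 18 in C4-2BER. PCDHB2 was the next strongest in C4-2BER, with 32 reads there and 23 in C4-2B (depth-scaled log2 ratio 0.74, counting interval −0.08 to 1.57). PCDHB4 and PCDHB9 had no promoter interval in either list, and the nearest interval lay 13250 bp (C4-2B) and 13215 bp (C4-2BER) from PCDHB4 and 4696 bp from PCDHB9 in both lists. The same lines differed at 2 pseudogenes of the cluster: an interval just before the start of PCDHB17P (chr5:141155611-141155951, summit at −219 bp) held 27 reads, an interval just before that of PCDHB18P (chr5:141234230-141234812, summit at −209 bp) held 19 reads, and both were in the C4-2BER list only. PCDHB19P and PCDHA14 had no interval within 1000 bp of their starts.

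The PCDHG cluster interleaves the PCDHGA and PCDHGB subfamilies, which share constant exons. The 4 members open in C4-2B only were PCDHGA5, PCDHGB4, PCDHGB5 and PCDHGB6. At PCDHGB5 (chr5:141397747-141398076) the C4-2B summit held 35 reads, 2.93 times the depth-scaled limit of a C4-2BER call (10 reads). At PCDHGA5 (chr5:141364105-141364392) it held 30 reads, 1.93 times the limit of 13 reads. The limit was higher at PCDHGA5 because it was set by a higher local background.

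PCDHGB6 (chr5:141407831-141408137) held 24 reads, 2.23 times the limit of 9 reads. PCDHGB4 (chr5:141387553-141387752) held 20 reads, 1.67 times the limit of 10 reads. Members next to PCDHGB6 were open in both lists: PCDHGA9, between PCDHGB5 and PCDHGB6, had 40 C4-2B reads and 27 C4-2BER reads, and PCDHGA10, just after PCDHGB6, had 49 and 34. Of the 7 PCDHGB members, 4 were open in both lists, 3 in C4-2B only and 0 in neither, whereas of the 12 PCDHGA members 7 were open in both, 1 in C4-2B only and 4 in neither.

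Among the alternate PCDHG members, PCDHGB1 was the strongest in C4-2BER, with 59 reads there and 49 in C4-2B (log2 ratio 0.53, −0.04 to 1.10), and PCDHGA12 the strongest in C4-2B.

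PCDHGB4 and PCDHGB5 have nearly the same promoter, as their printed sequences show. Of the 50-base words of their windows, 75.6% occurred once in the genome, against 88.1% for PCDHGB6 and 99.7% for PCDHGA5. The part that repeated words, whose reads a mapping quality filter can remove, had in these states was not tested. The 6 promoters open in C4-2BER only were 100% unique by this measure. The lowest value, 61.3%, belonged to PCDHB8 and PCDHB13, which were open in both lists.

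PCDHGA3, PCDHGA4, PCDHGA6, PCDHGA8 and PCDHGC5 were open in neither list. For PCDHGA8 this rests on the gene record, whose 5′ end lies 2476 bp before the canonical TSS. Both lists had an interval at that canonical TSS, with 31 C4-2B reads (chr5:141392459-141393109) and 39 C4-2BER reads (chr5:141392443-141393449), so by the canonical TSS PCDHGA8 was open in both. Among the others, the nearest interval to the canonical TSS lay between 2016 bp (PCDHGA6, C4-2B) and 10466 bp (PCDHGC5, C4-2B) away.

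The PCDHA cluster was the most alike between the lists by state, which counts any interval within 1000 bp of the TSS. At the canonical TSS itself the lists differed. A C4-2BER interval covered it at PCDHA2, PCDHA5, PCDHA8, PCDHA13 and PCDHAC2. There the nearest C4-2B interval lay 385, 183, 74, 105 and 181 bp away. At PCDHA4, PCDHA11 and PCDHAC1 both lists covered it, and at PCDHA6, PCDHA9 and PCDHA10 neither did. PCDHA2, PCDHA4, PCDHA5, PCDHA6, PCDHA8, PCDHA9, PCDHA10, PCDHA11, PCDHA13, PCDHAC1 and PCDHAC2 were open in both, with 12 to 43 C4-2B reads and 10 to 68 C4-2BER reads. PCDHA1, PCDHA3, PCDHA7 and PCDHA12 were open in neither. Among alternate members, PCDHA5 was the strongest in C4-2B, with 29 reads there and 22 in C4-2BER (depth-scaled log2 ratio −0.14, counting interval −1.01 to 0.71), and PCDHA8 the strongest in C4-2BER, with 41 reads there and 26 in C4-2B (0.92, 0.17 to 1.68). Near PCDHA12 a C4-2B interval of 9 reads (chr5:140876560-140876788) began 1252 bp from the TSS, just outside the window, where C4-2BER had no interval within 5615 bp. Near PCDHA7 both lists had an interval just outside the window, 1186 bp (C4-2B) and 1283 bp (C4-2BER) from the canonical TSS.

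The C-type genes differed from each other. PCDHGC3 was the most accessible member in both lists, with 115 C4-2B reads (chr5:141475608-141476720) and 110 C4-2BER reads, and its summit ranked above 93.2% of all C4-2B intervals and 95.3% of all C4-2BER intervals. PCDHAC1 followed in the PCDHA cluster, with 43 C4-2B reads and 68 C4-2BER reads. PCDHAC2 had 12 C4-2B reads and 39 C4-2BER reads, the largest ratio among the members.

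PCDHGC4 (chr5:141484557-141485156) was open in C4-2BER only, with 37 reads, 4.02 times the depth-scaled limit of a C4-2B call (11 reads), which was the largest such excess among the 10 members open in 1 list. The nearest C4-2B interval lay 6415 bp from its canonical TSS. PCDHGC5, the last gene of the cluster, was open in neither list.

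To compare the 32 promoters open in both lists, reads at the C4-2BER summit were multiplied by 1.20, the ratio of the background floors of the 2 lists. The log2 ratio of C4-2BER to C4-2B then had a median of 0.34 over these members, from −0.66 (PCDHGB2) to 1.96 (PCDHAC2), and a median of 0.15 over all 13311 promoters open in both lists. Of the members, 11 of 32 (34.4%) were at least 1.5-fold higher in C4-2BER, against 7.52% of all such promoters, and 1 of 32 (3.13%) was at least 1.5-fold higher in C4-2B, against 2.36%. The members held fewer reads, so their ratios carry wider counting intervals than those of most promoters: they had a median of 24 reads (C4-2B) and 25.5 reads (C4-2BER) at open promoters, where all promoters open in both had 122 and 112.

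Relative to the median of all promoters, 9 of the 32 members were at least 1.5-fold higher in C4-2BER, against 5.35% of all such promoters, 2 were at least 1.5-fold higher in C4-2B, against 3.38%, and 21 lay above that median. Single members were rarely resolved: the 95% counting interval lay above 0 for 6 of 32 and below 0 for none, and above the median of all promoters for 5 and below it for 1. The 3 highest were PCDHAC2 (log2 ratio 1.96, interval 1.00 to 3.03), PCDHGA11 (1.16, 0.21 to 2.17) and PCDHB8 (1.11, 0.37 to 1.87). Their intervals all excluded 0. At PCDHGA11 the summit held 15 C4-2B reads and 28 C4-2BER reads.

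The 3 lowest were PCDHGB2 (log2 ratio −0.66, interval −2.01 to 0.59), PCDHGA12 (−0.49, −1.11 to 0.12) and PCDHA6 (−0.33, −1.64 to 0.92). Each interval included 0. PCDHGB2 had 17 C4-2B reads and 9 C4-2BER reads, PCDHGA12 had 62 and 37, and PCDHA6 had 15 and 10. PCDHGA12 was the member whose interval lay below the median of all promoters.

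Summed over the promoters of a cluster that were open in both lists, PCDHA members held 247 C4-2B reads and 325 C4-2BER reads, a log2 ratio of 0.65 (counting interval 0.41 to 0.90). PCDHB members held 185 and 209 reads, a log2 ratio of 0.43 (0.14 to 0.73). PCDHG members held 515 and 482 reads, a log2 ratio of 0.16 (−0.02 to 0.35), and 0.19 (0.02 to 0.37) with promoters set at the canonical TSS. With the median of all promoters set to 0, the values were 0.51 (0.26 to 0.75) for PCDHA, 0.29 (−0.005 to 0.58) for PCDHB and 0.02 (−0.17 to 0.20) for PCDHG. These sums describe only promoters called in both lists and leave out the 5 PCDHB and 1 PCDHG promoters open in C4-2BER only and the 4 PCDHG promoters open in C4-2B only, so they are no measure of whole clusters. Without PCDHAC1 and PCDHAC2, the 9 alternate PCDHA promoters held 192 C4-2B reads and 218 C4-2BER reads, a log2 ratio of 0.44 (0.16 to 0.73). Most of these summits lay inside the first exon, as given below.

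Promoter intervals were also wider in C4-2BER for 24 of the 32 members, against 61.9% of all promoters open in both lists. The median width of open PCDHA promoters was 318 bp in C4-2B and 929 bp in C4-2BER. It was 272 and 446 bp for PCDHB and 388 and 600 bp for PCDHG.

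**Figure D2:**
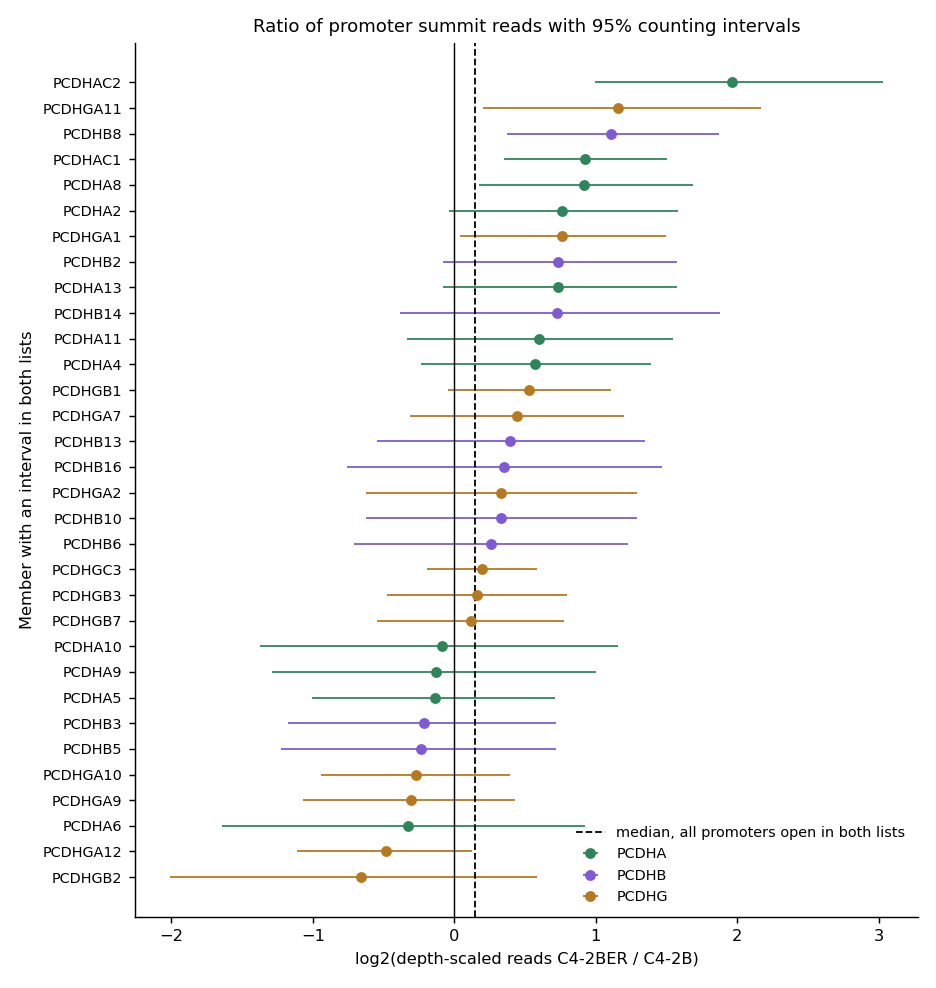
The log2 ratio of depth-scaled promoter summit reads, C4-2BER over C4-2B (x axis), for the 32 members open in both lists (y axis, sorted), with bars for the exact 95% counting interval, a solid line at 0 and a dashed line at the median of all promoters open in both lists (0.15). Bars of 6 members lay wholly above 0, none lay wholly below it, and PCDHAC2 had the highest ratio (1.96).

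Summits were placed differently in the clusters. The sign of the shift applied to reads before interval calling could not be settled from the methods, and a shift in the other direction would displace coverage from the cut sites, so all distances from summits below carry that uncertainty. Relative to the canonical TSS, the median PCDHB summit lay at −29 bp for C4-2B and at −24.5 bp for C4-2BER, and 9 of 9 and 12 of 14 lay within 100 bp of it. The median PCDHG summit lay at −40.5 and −40 bp, with 15 of 16 and 13 of 13 within 100 bp. Summits of the alternate PCDHA promoters instead lay inside the first exon, a median of 556 bp (C4-2B) and 550 bp (C4-2BER) after the TSS, and 8 of 9 in either list were 400 to 700 bp inside.

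The exception was PCDHA11, whose strongest summit in the window lay at −25 bp (C4-2B) and −29 bp (C4-2BER) from the canonical TSS. A further interval of PCDHA11 had its summit 592 bp after the canonical TSS in C4-2B, with 27 reads (chr5:140869315-140869705), and 597 bp after it in C4-2BER, with 19 reads. These intervals fell outside the window because the gene record starts 774 bp before the canonical TSS. The C-type promoters PCDHAC1 and PCDHAC2 had summits 344 and 281 bp after the TSS in C4-2B and 334 and 222 bp after it in C4-2BER.

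The shared word followed the same division. Among open promoters with the word, the summit lay within 100 bp of it for 7 of 7 PCDHB promoters in C4-2B and 10 of 11 in C4-2BER, and for 9 of 9 and 6 of 6 PCDHG promoters. It lay within 100 bp of the word for 0 of 5 PCDHA promoters in either list, at a median distance of 614 bp in C4-2B and 607 bp in C4-2BER.

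The exons of the PCDHA genes held another sequence near the summits. The CTCF consensus, a 12-letter motif for the factor that anchors chromatin loops, was searched on both strands. With up to 1 mismatch it was found on the plus strand within 1000 bp after the canonical TSS of 10 of 13 alternate PCDHA genes, PCDHA4 to PCDHA13, exactly in 4 of them. The matches began 570 to 621 bp after the TSS, in coding sequence, and no PCDHB or PCDHG gene had such a match on that strand. The share of all genes with a match by this measure was not computed.

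Summits lay within 100 bp of the match for 6 of 8 open PCDHA promoters in C4-2B and 7 of 8 in C4-2BER. The windows of 10 of 53 members (18.9%) held a match with up to 1 mismatch on either strand, against 21.1% of all protein-coding genes, so the members as a whole were near the share of all genes, with 8 of 15 PCDHA, 2 of 16 PCDHB and 0 of 22 PCDHG windows. Printed below from hg38, with the match in capitals, are exons of PCDHA genes open in both lists and of PCDHA7, which had the match but was open in neither. Of the 50-base words of the PCDHA7 window, 74.6% occurred once in the genome, the lowest value in PCDHA. Its printed stretch is the same as that of PCDHA9, which was open in both lists. The part that repeated words had in the state of PCDHA7 was not tested. A match is a description of letters and not of binding, which was not measured.
PCDHA4, exact match, chr5:140807634-140807665: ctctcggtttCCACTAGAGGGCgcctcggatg
PCDHA8, 1 mismatch, chr5:140841768-140841799: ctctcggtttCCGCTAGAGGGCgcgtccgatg
PCDHA13, exact match, chr5:140882715-140882746: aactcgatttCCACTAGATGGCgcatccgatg
PCDHA7, exact match, chr5:140834830-140834861: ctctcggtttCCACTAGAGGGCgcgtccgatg

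**Figure D3:**
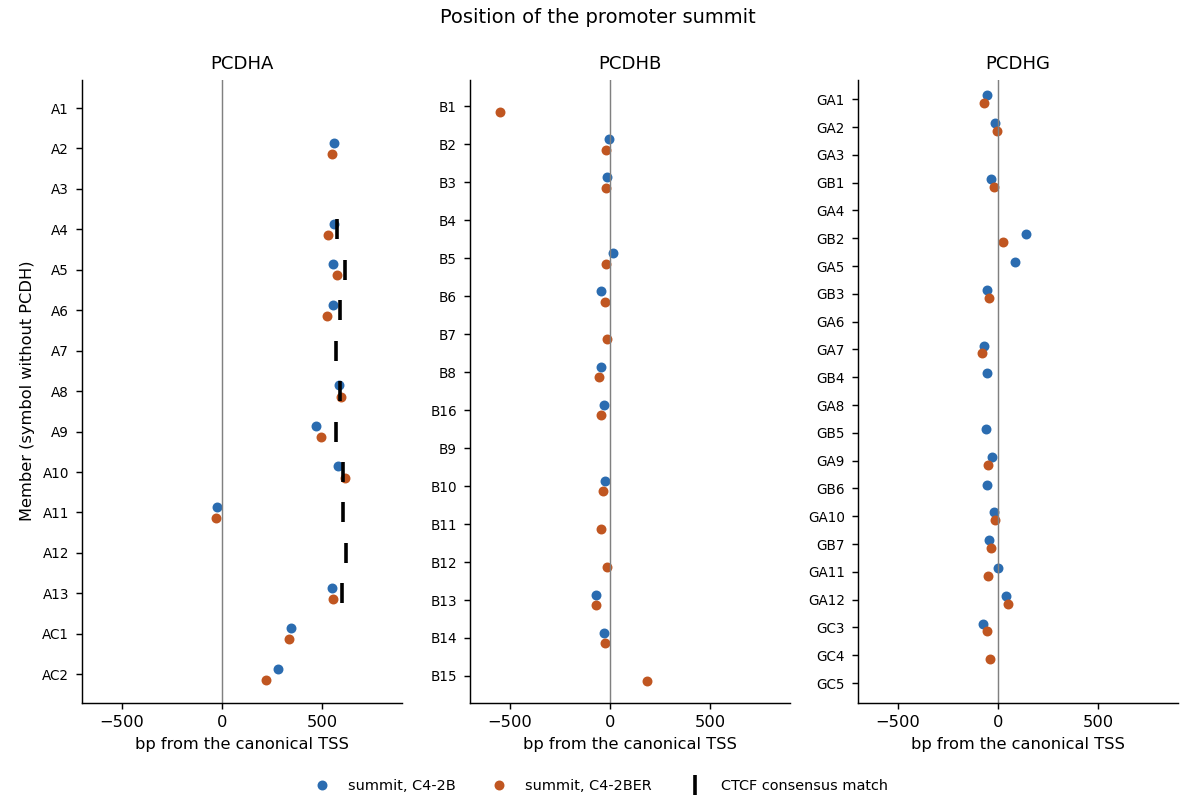
Distance of the promoter summit from the canonical TSS in bp (x axis) for each member (y axis, genome order from the top), with a panel per cluster, blue points for C4-2B, orange points for C4-2BER and black bars for the CTCF consensus match with up to 1 mismatch on the plus strand. PCDHB and PCDHG summits sit near 0, and 8 of 9 alternate PCDHA summits in each list sit 400 to 700 bp inside the gene, near the black bars.

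Intervals were then listed from 100 kb before the first to 100 kb after the last member, a stretch of 927 kb (chr5:140686136-141612977). C4-2B had 77 intervals there, covering 36410 bp, and C4-2BER had 76, covering 42712 bp. Of the C4-2B intervals, 60 (77.9%, Wilson 95% interval 67.5 to 85.7) overlapped an interval of the other list, against 62.3% of the whole C4-2B list. Of the C4-2BER intervals, 60 (78.9%, 68.5 to 86.6) overlapped, against 79.2% of the whole C4-2BER list.

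By region, C4-2B had 21 intervals in the PCDHA cluster, 11 in PCDHB and 27 in PCDHG, of which 5, 1 and 9 were absent from the other list. C4-2BER had 18, 18 and 20, of which 3, 7 and 2 were absent from the other list. Of the 3 clusters, PCDHB thus held the most intervals found in C4-2BER alone and PCDHG the most found in C4-2B alone. These counts include promoters already given as open in 1 list, so they are no separate result. By share, 66.7% of the C4-2B intervals in PCDHG were shared (Wilson interval 47.8 to 81.4), near the 62.3% of the whole list. Of the C4-2BER intervals in PCDHB, 61.1% were shared (38.6 to 79.7, which included the 79.2% of the whole list). The local background differed between clusters, with a median of 1.00 times the genome-wide floor at open PCDHA and PCDHB promoters in C4-2B and 1.90 times at PCDHG promoters, and in C4-2BER 1.42 times for PCDHA, 1.01 for PCDHB and 1.85 for PCDHG.

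Inside the variable exons, away from promoters, C4-2B had 11 intervals and C4-2BER 3. All 3 of C4-2BER overlapped C4-2B intervals, against 79.2% of the whole C4-2BER list. Of the 11 of C4-2B, 8 were absent from C4-2BER, so 27.3% were shared (Wilson interval 9.75 to 56.6), against 62.3% of the whole C4-2B list. Most of the 8 were weak, and 1 of them had a −log10 q of at least 10. In the PCDHA cluster the 6 C4-2B summits held 9 to 17 reads. In PCDHA2, PCDHA5, PCDHA7, PCDHA11 and PCDHA12 they lay 1323 to 1381 bp after the canonical TSS, and the sixth was in PCDHA11, 2097 bp after it.

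In the PCDHG cluster the 5 C4-2B summits lay close to the 3′ end of the variable exon, 20 to 294 bp before it, in PCDHGA4, PCDHGA5, PCDHGA6, PCDHGA11 and PCDHGC3. The strongest, at PCDHGA5 (chr5:141366305-141366916), held 82 reads in C4-2B and 17 in the overlapping C4-2BER interval, a log2 ratio of −2.01 (interval −2.86 to −1.25). PCDHGA5 was therefore lower in C4-2BER both at its promoter and at the end of its variable exon. At PCDHGA11 the C4-2B interval (chr5:141422770-141423553) held 26 reads and had no C4-2BER counterpart, although the promoter of that gene had a higher ratio in C4-2BER.

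The largest difference between the lists in the PCDHA cluster was at no promoter. An interval between PCDHA4 and PCDHA5 (chr5:140813153-140813739), 6280 bp after the canonical TSS of PCDHA4, held 66 C4-2B reads and 10 C4-2BER reads, a log2 ratio of −2.46 (interval −3.59 to −1.50). It was stronger in C4-2B than any PCDHA promoter. In the opposite direction, an interval after the variable exons of the cluster (chr5:141004147-141004626 in C4-2BER), 37945 bp after the canonical TSS of PCDHAC2, held 11 C4-2B reads and 24 C4-2BER reads, a log2 ratio of 1.38 (0.30 to 2.56).

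Between the PCDHA and PCDHB clusters, C4-2BER had a pair of strong intervals and C4-2B a single one. The shared interval held 54 C4-2B reads (chr5:141041068-141041513) and 96 C4-2BER reads (chr5:141040779-141041445), a log2 ratio of 1.09 (0.59 to 1.60). The other (chr5:141039867-141040513) held 60 reads in C4-2BER and had no C4-2B counterpart. Their C4-2BER summits lay −10130 and −11085 bp from the canonical TSS of PCDHB1, the first gene of the PCDHB cluster, which itself was open in C4-2BER only.

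Each of these intervals held an exact CTCF consensus match on the minus strand, the strand opposite to the matches in the PCDHA exons. The matches are printed 5′ to 3′ on the minus strand, with the match in capitals, since they carry the strand difference.
Shared interval, chr5:141041362-141041393: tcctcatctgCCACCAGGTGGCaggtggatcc
C4-2BER-only interval, chr5:141040353-141040384: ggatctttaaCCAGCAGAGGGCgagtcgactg
In the whole stretch, 7 of 77 C4-2B intervals (9.09%) and 8 of 76 C4-2BER intervals (10.5%) held an exact match, against 3.62% and 4.62% of all intervals of the lists. The 3 matched intervals in the PCDHA cluster of either list were in exons on the plus strand, and the matches of the other intervals were all on the minus strand.

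**Figure D4:**
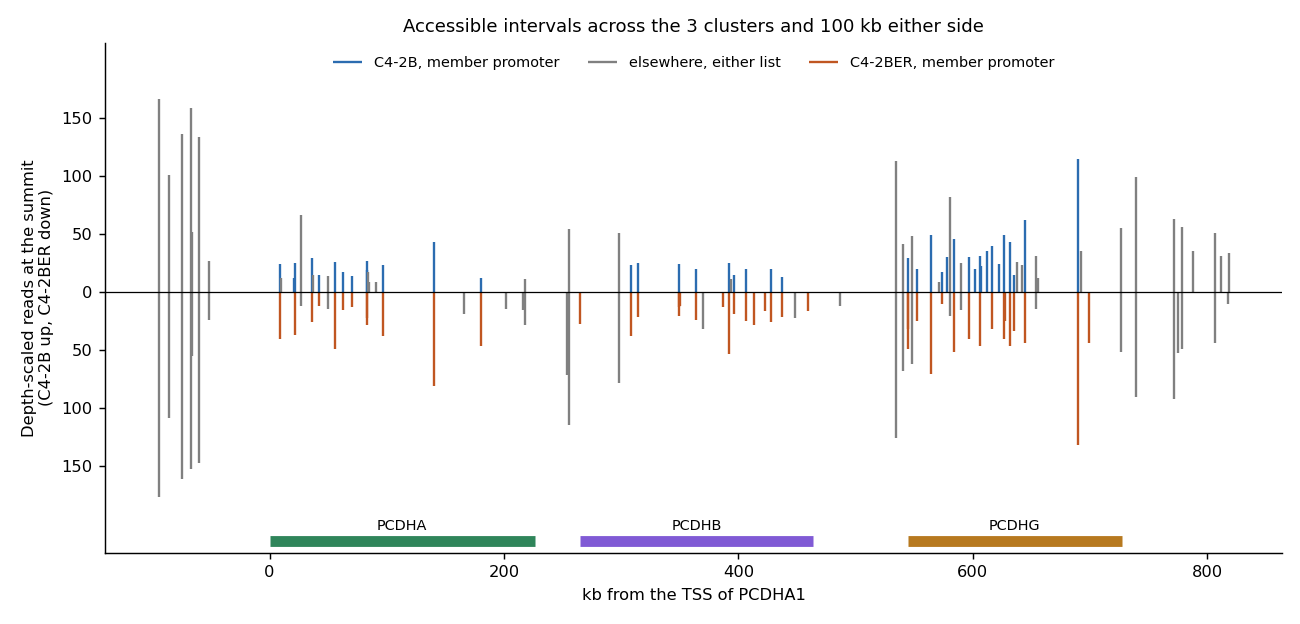
Depth-scaled reads at the summit of every interval (y axis, C4-2B upward and C4-2BER downward) against the distance from the TSS of PCDHA1 in kb (x axis), with blue and orange lines for intervals at member promoters, grey lines for other intervals and bars for the 3 clusters. The tall grey upward line in the PCDHA cluster is the interval of 66 C4-2B reads between PCDHA4 and PCDHA5, and the tall grey downward pair before PCDHB is the pair held by C4-2BER.

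The strongest intervals outside the promoters of members were alike in the lists. In the 5′ flank, 3 intervals outside the scored promoters of protein-coding genes held 134 to 159 C4-2B reads and 123 to 135 C4-2BER reads. The interval at the shared promoter of HARS1 and HARS2, which code for histidyl-tRNA synthetases, held 166 and 148. The promoter interval of TAF7, a subunit of the general transcription factor TFIID whose gene lies between PCDHB and PCDHG, held 113 and 105 reads. Of the 6 other protein-coding genes with a TSS in the stretch, 4 were open in both lists and 2 (ZMAT2 and SLC25A2) in neither. For ZMAT2 this rests on the start of the gene record, since an interval inside the gene but outside the window (chr5:140699937-140700763) held 101 C4-2B reads and 91 C4-2BER reads. None of the 6 was open in 1 list only. The genes open in both were not independent: HARS1 and HARS2 were scored by the same interval. ENSG00000279983 was scored by the interval of the member PCDHB14, with 13 C4-2B reads and 18 C4-2BER reads.

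The remaining line-only intervals with a −log10 q of at least 10 lay in the 3′ flank. C4-2B had 2 of them (chr5:141574016-141574586 with 35 reads and chr5:141597458-141598144 with 31 reads). C4-2BER had 1 (chr5:141560749-141561106 with 44 reads). At the start of the pseudogene PCDHGB9P, an interval in both lists held 31 C4-2B reads (chr5:141439481-141439916) and 12 C4-2BER reads, a log2 ratio of −1.11 (−2.21 to −0.11). At the 3′ end of the PCDHG cluster, an interval in the last constant exon (chr5:141512317-141512692) held 55 and 43 reads, a log2 ratio of −0.10 (−0.71 to 0.51).

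Genes related to the clusters by family or function were scored in the same way. Of 13 non-clustered protocadherins, which are single genes elsewhere in the genome, 10 were open in both lists, 0 in C4-2B only, 2 (PCDH11X and PCDH15) in C4-2BER only and 1 in neither. The highest ratios were at PCDH10, with 32 C4-2B reads and 88 C4-2BER reads (log2 ratio 1.72), and PCDH18, with 12 and 32 (1.67). PCDH7 held 34 and 72 (1.34) and PCDH8 held 41 and 79 (1.21). The highest ratio of a clustered member was 1.96, at PCDHAC2. Ratios were lower at PCDH17 (0.71), PCDH9 (0.42), PCDH1 (0.23) and PCDH19 (0.12). PCDH20, with 99 and 101 reads (0.29), and PCDH12, with 146 and 123 (0.01), were strong in both lists.

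The 17 genes for regulators of the clusters were open in both lists. They code for CTCF, for cohesin and its loaders and release factor (RAD21, SMC1A, SMC3, STAG1, STAG2, NIPBL, WAPL), for silencing and methylation factors (SMCHD1, SETDB1, DNMT3A, DNMT3B, ZNF274) and for others (WIZ, TET1, TET3, LDB1). The promoter of CTCF held 216 C4-2B reads and 185 C4-2BER reads (log2 ratio 0.04). That of TET1, an enzyme of DNA demethylation, held 23 and 35 (0.86), the highest ratio of the list.

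Of 7 adhesion partners, 5 were open in both lists, RET, a receptor tyrosine kinase, in C4-2BER only, and CTNNB1, which codes for beta-catenin, in neither at its gene start. CDH2, which codes for N-cadherin, held 15 C4-2B reads and 87 C4-2BER reads (log2 ratio 2.79), and CDH1, which codes for E-cadherin, held 148 and 141 (0.19). As a check of the labels, all 5 prostate luminal markers and the neuroendocrine markers CHGA, SYP, NCAM1 and ENO2 were open in both lists. KLK3, the gene of prostate-specific antigen, held 171 C4-2B reads and 45 C4-2BER reads (−1.67), and KLK2 held 171 and 25 (−2.52). The log2 ratio was 0.00 at CHGA and −0.04 at SYP, with counting intervals that included 0, and 0.84 at NCAM1 and 0.64 at ENO2, with intervals above 0.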

How the data were processed

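ATAC-seq was performed on 4 libraries, 2 of C4-2B and 2 of C4-2BER. According to the study's methods, the authors trimmed reads with cutadapt, aligned the pairs of 50-base reads to hg38 with Bowtie2, kept reads of mapping quality at least 10, removed duplicates with Picard, merged the libraries of each line and called intervals with MACS2; bedtools 2.17 is named in the submitters' processing notes. The MACS2 version is not given in the sources used here. The deposited lists give the fold ratio over background, the −log10 p-value, the −log10 q-value and the summit offset of each interval, and the deposited score was not used. Read totals are not in the lists, so the depth per library is unknown. C4-2B had 149676 intervals and C4-2BER 118728.

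Reads at each summit and the local background were recovered from the deposited fold and −log10 p under a Poisson model, which was tested on simulated data, and C4-2BER reads were multiplied by 1.20, the ratio of the background floors. Intervals of ratios are exact binomial and those of shares are Wilson, both at 95%, and account for counting error alone. Since each line had a single list, nothing was tested. Genes were from GENCODE release 44. Lists overlapped where at least 1 bp was shared. Uniqueness was the share of 50-base words of a window found once in hg38. Python 3.11.15, numpy 2.4.6, pandas 2.3.3, scipy 1.17.1 and matplotlib 3.10.9 were used.

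The members, gene lists and settings were chosen with earlier results of these data known. Named in full were members open in 1 list only, the C-type genes, the 2 members with most reads per cluster and list, the 3 highest and 3 lowest ratios, the 5 strongest intervals outside member promoters and the line-only intervals with a −log10 q of at least 10. Other intervals and genes named were chosen after their values were seen. One gene of the marker lists is not reported here.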

Additional observations from a re-analysis of the deposited data

How the results depend on the processing

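No paired analysis was possible because the authors merged the libraries of each line before calling intervals, and for the same reason no library could be left out. Of 170 recomputed values, 141 stayed within the limits set for a change, 29 moved and 0 reversed. With a −log10 q of at least 5, 8 members were open in C4-2B only (2.41% of all genes), with 2 in PCDHA and 1 in PCDHB, and the counts open in C4-2BER only were 1 in PCDHA and 2 in PCDHG. With a −log10 q of at least 10, 21 members were open in both (63.2% of all genes) and 21 in neither (30.5%), 1 PCDHB member was open in C4-2B only, 2 PCDHA, 3 PCDHB and 2 PCDHG members were open in C4-2BER only, and 2 regulators, 2 adhesion partners and 1 flanking gene were open in 1 list only. With equal numbers of top intervals, 11 members were open in C4-2BER only (6.07% of all genes, against 4.53% in the main setting), 2 of them in PCDHA and 3 in PCDHG, and 1 flanking gene was open in 1 list only. With a window of 500 bp, 1 PCDHA member was open in C4-2B only and 1 non-clustered protocadherin in 1 list only. With a window of 2000 bp, 1 PCDHA member was open in C4-2B only and 0 adhesion partners in 1 list only. With any TSS of a protein-coding transcript these were 1 non-clustered protocadherin and 0 adhesion partners, and with the canonical TSS, a setting added after seeing the data, 1 non-clustered protocadherin. Requiring a reciprocal overlap of 50% lowered the shared intervals of the locus to 61.0% (C4-2B) and 61.8% (C4-2BER). Allowing 1 mismatch raised the intervals with a CTCF match to 14 and 15. The cause of these moves was not tested beyond what each setting removes or adds. The reads are few, so most single ratios are not resolved.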
